A study of Gallus gallus with 50 samples.

Results

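The chicken mitochondrial genome is represented in the deposited gene table by 37 genes, all those whose chromosome entry is MT, out of 24356 genes in all. They are 13 protein-coding genes, 2 ribosomal RNA (rRNA) genes and 22 short genes of 65 to 135 bases. The table gives identifiers and positions on GRCg6a without symbols, and 36 of the 37 genes were named by their length and order from the RefSeq annotation of the chicken mitochondrial genome. The short genes matched transfer RNA (tRNA) genes, apart from one of 135 bases, which matched none. In the 42 libraries that the authors kept, 26 of the 37 genes had 10 or more reads in at least 3 libraries. These are described gene by gene, and they are the 13 coding genes, both rRNA genes and 11 short genes. The other 11 genes, all of them short, had between 0 and 8 reads summed over the 42 libraries.

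Mitochondria keep a small circular genome of their own, separate from the chromosomes of the nucleus. Both strands of it are transcribed as long RNAs, which are then cut into separate RNAs, largely at the tRNAs that lie between the other genes, and in mammals the rRNAs and most of the messenger RNAs receive adenine tails. The coding genes give core subunits of the respiratory chain. The ND genes belong to complex I, the NADH dehydrogenase through which most electrons enter the chain. CYTB belongs to complex III, the COX genes to complex IV (cytochrome c oxidase, which reduces oxygen), and ATP6 and ATP8 to the ATP synthase. The rRNAs build the mitochondrial ribosome, which translates only these messenger RNAs.

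Polyadenylated RNA was sequenced from cells of dissected chicken embryo heads at 6 Hamburger-Hamilton (HH) stages, the standard stages of chick development. In every group, whole embryos had been electroporated with ptk-TFAP2AE1-GFP, in which the TFAP2AE1 enhancer drives GFP, and incubated ex ovo, and around 20 heads were pooled and sorted for each sample. GFP-positive cells carry the label Neural Crest, and their groups are named NC with the stage. GFP-negative cells are embryonic head cells, called head cells here, and their groups are named WE_6 to WE_16. The neural crest is a migratory cell population of the embryo that gives rise to facial skeleton, pigment cells and peripheral nerves, and the comparisons ask how NC cells differ from head cells and how each changes with stage. The kept libraries form 12 groups, namely NC_6 and WE_6, NC_8 and WE_8, NC_10 and WE_10, and NC_14 and WE_14 with 3 libraries each, NC_12 and WE_12 with 4 each, and NC_16 and WE_16 with 5 each. The NC label rests on the reporter alone, and any crest cell that did not express GFP counts as a head cell. Cell type markers could not be checked, because the files give identifiers without symbols and the reference table does not pair them. Bulk values of sorted pools cannot tell a lower level in every cell from fewer cells with the RNA.

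Counted reads per kept library ranged from 4869937 to 29316689, of which 205986 to 1510889 were mitochondrial. The library names begin with 6 different codes, whose meaning the labels do not give, and the kept libraries were split by them into 4 library sets, called A to D here. Set A, which joins 3 of the codes, held 22 of the kept libraries and touched all 12 groups, set B held 10, set C held 6 (NC and head cells at HH6, HH8 and HH16) and set D held 4 (HH12 alone). Library WE_16 replicate 5 stood apart: 29.9% of its mitochondrial reads came from the rRNA genes, against at most 10.5% in the other kept libraries. Results that rest on it are given with and without it, where they were fitted or summed.

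The 37 genes together took 3.32% to 7.41% of counted reads in the kept libraries, with a median of 5.17%. Their share was 7.05%, 5.84% and 6.23% in the NC_6 libraries and 7.14%, 6.12% and 4.23% in the WE_6 libraries. At HH10 it was 5.10%, 3.80% and 3.32% in NC_10, against 6.23%, 5.77% and 4.28% in WE_10. NC_10 had the lowest group mean, 4.07 ± 0.917% (SD, n = 3), and NC_6 the highest, 6.38 ± 0.616% (SD, n = 3), where the SD within the 12 groups was 0.378 to 1.48 percentage points. The NC and head cell means were 5.97 ± 1.19% and 6.09 ± 1.27% at HH8, 4.81 ± 0.378% and 5.30 ± 0.482% at HH12, 5.68 ± 0.888% and 5.08 ± 0.633% at HH14, and 4.73 ± 0.894% and 5.25 ± 0.979% at HH16 (SD, n = 3, 4, 3 and 5 libraries). Of 19 pools of embryos that gave both a kept NC and a kept head cell library, the share was lower in the NC library of 15 and higher in that of 4. The higher ones were 1 of 3 pools at HH6, 2 of 3 at HH14 and 1 of 5 at HH16. The difference, NC minus head cells, had a median of -0.25 percentage points over the 19 pools and ranged from -1.76 to 2.01. With coding genes alone the direction turned in the HH8 pools of replicates 2 and 3. The coding share was 5.66% in NC_8 and 5.52% in WE_8 for replicate 2, and 4.68% and 4.59% for replicate 3. The share also moved with the library set: the set C library was the highest of its group in all 6 groups that hold one, and the medians were 5.34% in set A, 4.59% in set B, 7.10% in set C and 4.88% in set D. Fits with the set, or with the 6 codes, as a covariate are given beside the calls.

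**Figure D1:**
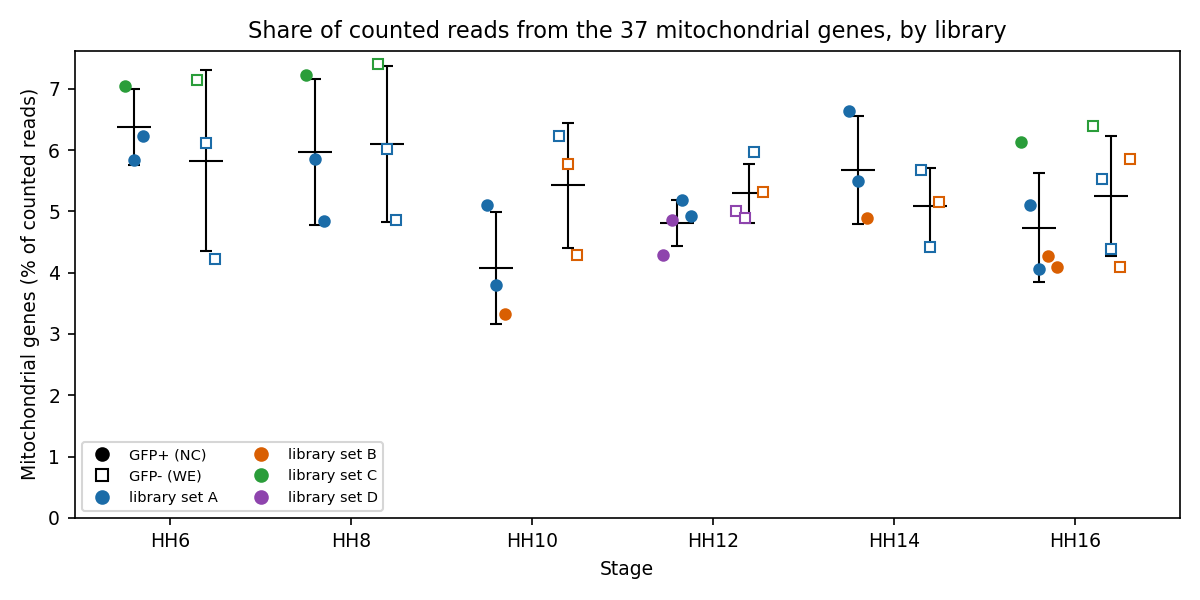
Percent of counted reads (vertical axis) that fell in the 37 mitochondrial genes, by stage (horizontal axis), in each kept library of GFP-positive NC cells (filled circles) and GFP-negative head cells (open squares, WE_6 to WE_16), with the group mean and SD (bars) and the library set as colour. NC_10 has the lowest mean, 4.07%, and the set C libraries are the highest of their groups.

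Coding genes supplied 89.3% to 97.9% of the mitochondrial reads in the kept libraries other than WE_16 replicate 5, where they supplied 69.8%. Levels were compared between genes as CPM, read counts relative to the size of the library, per kilobase (kb) of gene length, on library sizes scaled by the trimmed mean of M-values (TMM). Averaged over the 12 group means, COX1, the catalytic subunit of complex IV, stood first at 9043 CPM per kb, and it ranked first in 33 of 42 libraries. ATP6 (7377), COX2 (6949.6), COX3 (6408) and ND1 (6332 CPM per kb) followed. Neighbours within that second group did not separate beyond the spread of the libraries: ATP6 exceeded COX2 in 22, COX2 exceeded COX3 in 21 and COX3 exceeded ND1 in 23 of 42 libraries. A clear step came next, since ND1 lay above CYTB in 42 of 42 libraries. CYTB averaged 3724 CPM per kb, ND4 2951, ND2 2340.2 and ND5 2168, with ND2 above ND5 in 21 of 42 libraries. The 4 lowest coding genes were ATP8 (954), ND4L (779.5), ND6 (741) and ND3 (724 CPM per kb). ATP8, ND4L and ND3 are 165, 297 and 351 bases long, the 3 shortest coding genes, and ND6 is the one coding gene on the minus strand.

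**Figure D2:**
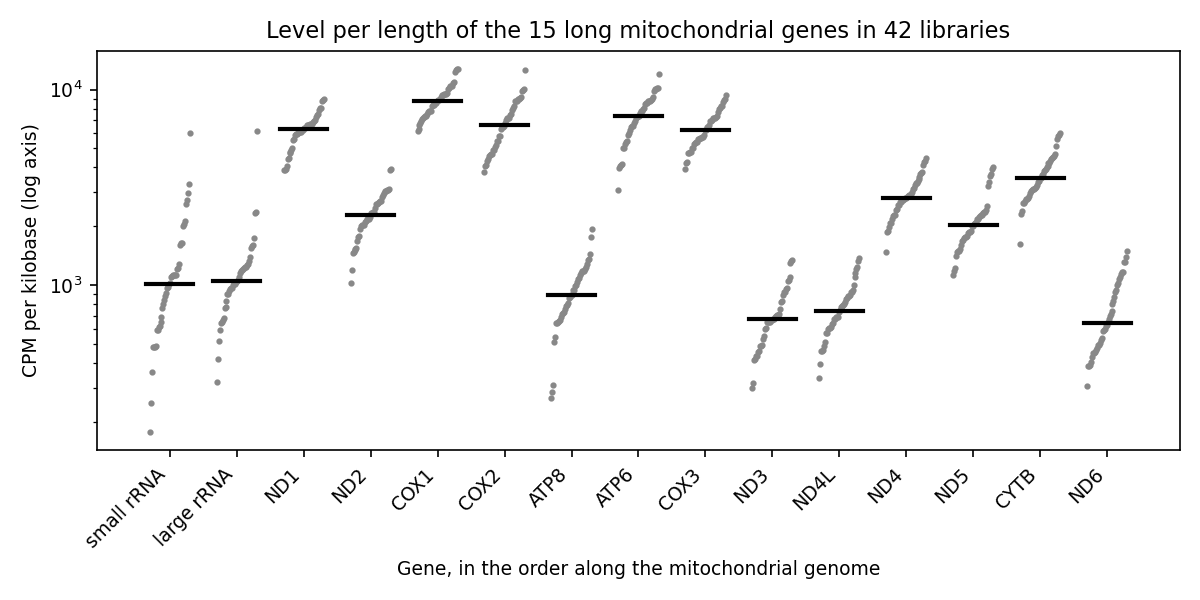
Level of the 15 long mitochondrial genes in CPM per kb (vertical log axis), with genes in their order along the genome (horizontal axis). Each point is 1 of the 42 kept libraries, sorted by level within a gene, and the bar is the median. COX1 has the highest mean, and the rRNA genes spread the widest, with the highest value of each in WE_16 replicate 5.

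Of the genes that overlap a neighbour on the same strand, ATP8 and ND4L were far below theirs. ATP8 ends 10 bases inside ATP6, and its level per kb was 0.129 of that of ATP6 in the median library (range 0.0648 to 0.276). ND4L overlaps ND4 by 7 bases, and its level per kb was 0.266 of that of ND4 in the median library (range 0.144 to 0.432). ATP6 and COX3 share 1 base, and their levels averaged 7377 and 6408 CPM per kb over the 12 group means. In NC_10, the lowest group for both, they averaged 4911 and 4980 CPM per kb. Each of the first 2 pairs is known from mammals to share 1 messenger RNA. The count command set no option for reads that overlap 2 genes, and such reads were therefore left out. This can understate short genes lying against a neighbour on the same strand. How many reads ATP8 and ND4L lost in this way was not measured, and the cause of their low levels was not tested.

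The 13 coding genes lay below the middle of the genes tested in spread between replicates, some of them by little. The scale was not matched for level. The dispersion estimated for COX1, the squared relative spread between replicates, was lower than that of all but 6.06% of the 15737 genes tested, and ND1, COX3, ND4 and CYTB lay at 13.9%, 14.6%, 16.6% and 16.7% on the same scale. The coding gene that varied most, ATP8, lay at 49.5%, followed by ND6 at 45.1% and ND3 at 43.7%. The large and small rRNA lay at 60.3% and 68.5%, and the short genes between 52.5% (short gene 11) and 94.5% (short gene 15). All of these values include WE_16 replicate 5. Across all 42 libraries the highest CPM of COX1 was 2.08 times the lowest, against 3.68 times for CYTB, 7.31 times for ATP8 and 33.7 times for the small rRNA. The large rRNA spanned 19.4 times. Without WE_16 replicate 5 the small rRNA spanned 18.5 times, the large rRNA 7.45 times and ATP8 6.86 times.

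Across the 12 groups, 11 of the 13 mitochondrial coding genes had their lowest mean level in NC_10. The share of all genes tested with their lowest mean there was not computed, and this count is given as description only. In NC_10 against NC_6, all 13 coding genes had a lower fitted level, with log2 fold changes from -0.97 (ND5) to -0.38 (ND3) and a median of -0.70, where the median of all 15737 genes tested was -0.01. One of them, CYTB, the cytochrome b subunit of complex III, fell by the test, and 8 of the 26 mitochondrial genes had an unadjusted p under 0.05, against 13.1% of all genes tested, the other 7 being COX1, ND4, ND5, ATP6, ND4L, ND1 and COX3. At an adjusted p under 0.05 edgeR called 1 of 26 genes, against 2.03% of all genes tested, and 0.979% of all genes were called lower. The 2 genes whose lowest group mean was not in NC_10 were COX2 and ND3, which were lowest in WE_16. Without WE_16 replicate 5 the WE_16 mean of COX2 was still the lowest, at 3774 CPM, but that of ND3 was 216 CPM, and the lowest ND3 mean was then that of NC_12, at 197 CPM. NC_10 replicate 4 was the lowest of the 42 libraries for 7 coding genes. The 13 coding genes come from shared long RNAs and were counted in the same libraries. They are therefore not independent, and counts of genes in 1 direction or past a threshold, here and below, are not separate results.

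CYTB (ENSGALG00000032079, MT 14893 to 16035, plus strand, GRCg6a) had 6857, 4061 and 4462 CPM in the NC_6 libraries, against 6735, 5352 and 3902 CPM in WE_6. At HH8 it had 5878, 5139.7 and 3079.8 CPM in NC_8, against 6379, 6647 and 3835 CPM in WE_8. The 2 populations overlapped at both stages. At HH10 CYTB had 3399.6, 2637 and 1862 CPM in NC_10, against 4845, 4496 and 3014 CPM in WE_10, so that the NC_10 libraries were low but their highest exceeded the lowest WE_10 library. At HH12 it had 3146, 3480.2, 3006 and 2728 CPM in NC_12, against 3703, 3649.6, 4023 and 3501 CPM in WE_12. All 4 NC_12 libraries lay below all 4 WE_12 libraries, though by a small margin, with a log2 fold change of -0.27 ± 0.22 (SE, adjusted p = 0.854). At HH14 CYTB had 5232, 4207 and 3575 CPM in NC_14, against 4845, 3165 and 3255 CPM in WE_14. The NC_16 libraries held 4651, 4611, 5117, 4212 and 3527 CPM and the WE_16 libraries 4936, 5024, 4405, 3543 and 3200.3 CPM, again with overlap.

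In NC_10 the CYTB level averaged 2633 ± 769 CPM, against 5127 ± 1512 CPM in NC_6 (SD, n = 3 each), and the groups did not overlap. The log2 fold change was -0.96 ± 0.26 (SE, adjusted p = 0.0421). The call ended in 5 of the 6 fits that left out 1 library of these groups. Without NC_6 replicate 1 the change was -0.69 (adjusted p = 0.302). Without NC_6 replicate 2 it was -1.10 (adjusted p = 0.0576), and without NC_6 replicate 3 -1.05 (adjusted p = 0.0504). Without NC_10 replicate 2 it was -0.96 (adjusted p = 0.141), and without NC_10 replicate 4 -0.76 (adjusted p = 0.282). The call held without NC_10 replicate 1, at -1.19 (adjusted p = 0.0306). These 6 fits called fewer of all genes tested as well, 0.628% to 1.62%, against 2.03% with every kept library. NC_6 holds 1 set C library, the one with 6857 CPM, and NC_10 none. With the set as a covariate the change was -0.73 (adjusted p = 0.0465), with the 6 codes as a covariate it was -0.75 (adjusted p = 0.0126), and among set A libraries alone, 2 in each group, it was -0.48 (adjusted p = 0.603). With the pool as a random replicate block in limma voom, 3 genes passed, CYTB, COX1 and ND4, where 3.48% of all genes tested passed, and the CYTB change was -0.95 (adjusted p = 0.0120).

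COX1 (ENSGALG00000032142, MT 6645 to 8192, plus strand) also had a lower fitted level in NC_10 than in NC_6 but did not pass the test. It had 12944, 10242 and 9492 CPM in NC_10, against 19133, 16197 and 16669 CPM in NC_6, with no overlap between the groups. The log2 fold change was -0.67 ± 0.21 (SE, adjusted p = 0.0825). DESeq2 gave -0.68 (adjusted p = 0.0227) and limma voom -0.68 (adjusted p = 0.0349), both past the threshold. Among the rest, ND4 had 4043, 3019 and 2043 CPM in NC_10, against 5679.6, 4505 and 5127 CPM in NC_6, with a log2 fold change of -0.75 ± 0.26 (SE, adjusted p = 0.143). ATP6, the proton channel subunit of ATP synthase, had 4244, 3731 and 2101 CPM in NC_10, against 6980.3, 5346 and 5965 CPM in NC_6, with a log2 fold change of -0.86 ± 0.32 (SE, adjusted p = 0.175). Both genes had every NC_10 library below every NC_6 library, and neither passed the adjusted threshold. Overlap between groups was looked at for mitochondrial genes alone. No share of all genes stands beside it, here or for the other genes, and it is given as description only.

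Between the populations at HH10, COX1 had a log2 fold change of -0.26 ± 0.20 (SE, adjusted p = 0.673) in NC_10 against WE_10, and the groups overlapped. At HH8, HH12 and HH14 the COX1 levels of the 2 populations also lay together. COX1 had 19661, 15511 and 14574 CPM in NC_8, against 19738, 14679 and 13900.4 CPM in WE_8, with a log2 fold change of 0.04 ± 0.20 (SE, adjusted p = 0.955). At HH12 it had 11087, 11997, 13476 and 13209 CPM in NC_12, against 12037, 11576, 14819.9 and 13693 CPM in WE_12, with a log2 fold change of -0.07 ± 0.18 (SE, adjusted p = 1.0). At HH14 it had 16916, 14638 and 12691 CPM in NC_14, against 14647, 12009.8 and 12849 CPM in WE_14, with a log2 fold change of 0.16 ± 0.20 (SE, adjusted p = 1.0). The groups overlapped at all 3 of these stages. At HH6 COX1 had 19387, 15835 and 11892 CPM in WE_6, a wider spread than in NC_6.

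From HH10 to HH16 the direction in NC cells was the opposite. In NC_16 against NC_10 all 13 coding genes had a higher fitted level, with log2 fold changes of 0.05 (ND1) to 0.75 (CYTB) and a median of 0.39, where the median of all genes tested was 0.05. The 2 comparisons share the NC_10 libraries and are therefore not independent. CYTB alone rose by the test, 1 of 26 mitochondrial genes against 7.05% of all genes tested, of which 3.06% were called higher. CYTB and ND5 were the 2 genes with an unadjusted p under 0.05, against 21% of all genes tested. CYTB averaged 4424 ± 595 CPM in NC_16 (SD, n = 5), against 2633 ± 769 CPM in NC_10 (SD, n = 3), with no overlap, and the log2 fold change was 0.75 ± 0.24 (SE, adjusted p = 0.0473). The call ended without NC_16 replicate 1, at 0.70 (adjusted p = 0.0774), without NC_16 replicate 2, at 0.73 (adjusted p = 0.0640), without NC_16 replicate 3, at 0.68 (adjusted p = 0.0825), without NC_16 replicate 4, at 0.74 (adjusted p = 0.0706), without NC_10 replicate 2, at 0.75 (adjusted p = 0.134), and without NC_10 replicate 4, at 0.54 (adjusted p = 0.306). It held without NC_10 replicate 1, at 0.98 (adjusted p = 0.0342), and without NC_16 replicate 5, at 0.80 (adjusted p = 0.0452). These fits called 3.84% to 7.07% of all genes tested, against 7.05% with every kept library. Set A libraries alone gave 0.62 (adjusted p = 0.149), where the median of all genes was -0.13. The set as a covariate gave 0.73 (adjusted p = 0.0101), and the 6 codes gave 0.65 (adjusted p = 0.0112). ND5 was next, with a log2 fold change of 0.65 ± 0.32 (SE, adjusted p = 0.238).

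**Figure D3:**
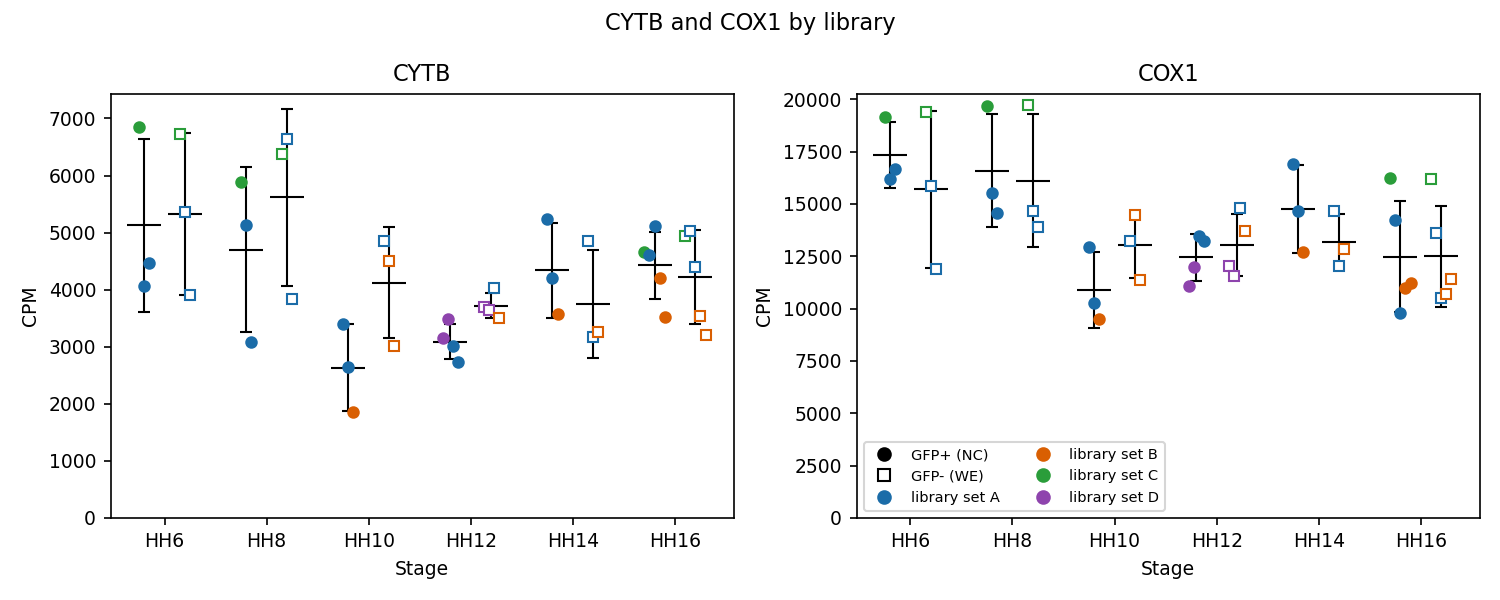
CPM of CYTB (left) and COX1 (right) by stage in each kept library of NC (filled circles) and head cells (open squares), with group mean and SD (bars) and the library set as colour; the vertical axes start at 0. CYTB averages 2633 CPM in NC_10, and the highest NC_6 library of CYTB is from set C.

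Head cells gave no call in the matching comparisons. In WE_10 against WE_6, 0 of 26 genes passed in edgeR, against 2.24% of all genes tested, and 1 had an unadjusted p under 0.05, against 18% of all genes. The coding median was -0.23, where the median of all genes tested was -0.06, and 10 of 13 coding genes were on the lower side. With the 6 codes as a covariate the coding median was 0.13, but that of all genes also moved, to 0.06. Among kept libraries, 1 of these codes holds only WE_10 replicate 2 and NC_16 replicate 3. CYTB had a log2 fold change of -0.37 ± 0.26 (SE, adjusted p = 0.455). In WE_16 against WE_10, 0 of 26 passed, against 4.89% of all genes tested, with 2 at an unadjusted p under 0.05, against 19.1% of all genes. The coding median there was -0.14, where that of all genes was 0.06. The test of whether the change between HH6 and HH16 differed between NC and head cells gave 0 of 26 genes, against 0.337% of all genes tested, with 1 at an unadjusted p under 0.05, against 10.1% of all genes. In these 3 comparisons DESeq2 called 0, 1 (short gene 12 in WE_16 against WE_10) and 0 genes, and limma voom called 0 in each. The fall of CYTB between HH6 and HH10 in NC cells was therefore not shown to differ from that in head cells, and that particular difference was not tested.

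Between the populations, 0 of 26 mitochondrial genes passed in edgeR at any stage. The background of all genes tested was 0.432% at HH6, 2.4% at HH8, 1.11% at HH10, 2.1% at HH12, 0.521% at HH14 and 0.445% at HH16. The numbers of mitochondrial genes with an unadjusted p under 0.05 were 0 at HH6, 0 at HH8, 2 at HH10 (CYTB and ND4L), 0 at HH12, 0 at HH14 and 3 at HH16 (the large rRNA, short gene 12 and short gene 17). The shares of all genes tested at that threshold were 6.62%, 12.1%, 13%, 10.5%, 7.11% and 11.9% at these stages in order, and at no stage was the mitochondrial share above them. The mean over the stages gave 0 of 26 as well, against 13.1% of all genes tested, with 0 at an unadjusted p under 0.05, against 23.4% of all genes. DESeq2 and limma voom also called none of the 26 in these comparisons. For the mean over stages the coding log2 fold changes lay between -0.32 (ND6) and 0.02 (ATP8), with a median of -0.04. The SE was 0.08 for COX1 and 0.18 for ATP8.

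At HH10 all 13 coding genes had a lower fitted level in NC_10 than in WE_10. The median log2 fold change was -0.42, where that of all genes tested was 0.02. CYTB had -0.65 ± 0.26 (SE, adjusted p = 0.253) and ND4L -0.77 ± 0.34 (SE, adjusted p = 0.323). With the library set as a covariate, where 2.6% of all genes tested passed, CYTB passed, at -0.77 (adjusted p = 0.0338). With the 6 codes as a covariate, where 2.65% of all genes tested passed, CYTB passed at -0.71 (adjusted p = 0.0420). In that fit WE_10 replicate 2 shares its code with NC_16 replicate 3 alone. Both are among the 3 kept libraries in which the fewest genes reached 10 reads. Without single libraries of the 2 groups the CYTB change lay between -0.87 and -0.45. At HH14 the coding genes leaned the other way, with 12 of 13 above 0 and a median of 0.21, ND6 being the exception. The medians were 0.10 at HH6, -0.11 at HH8, -0.18 at HH12 and 0.07 at HH16. Over the 6 stages the medians of all genes tested lay between -0.03 (HH16) and 0.02 (HH10).

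**Figure D4:**
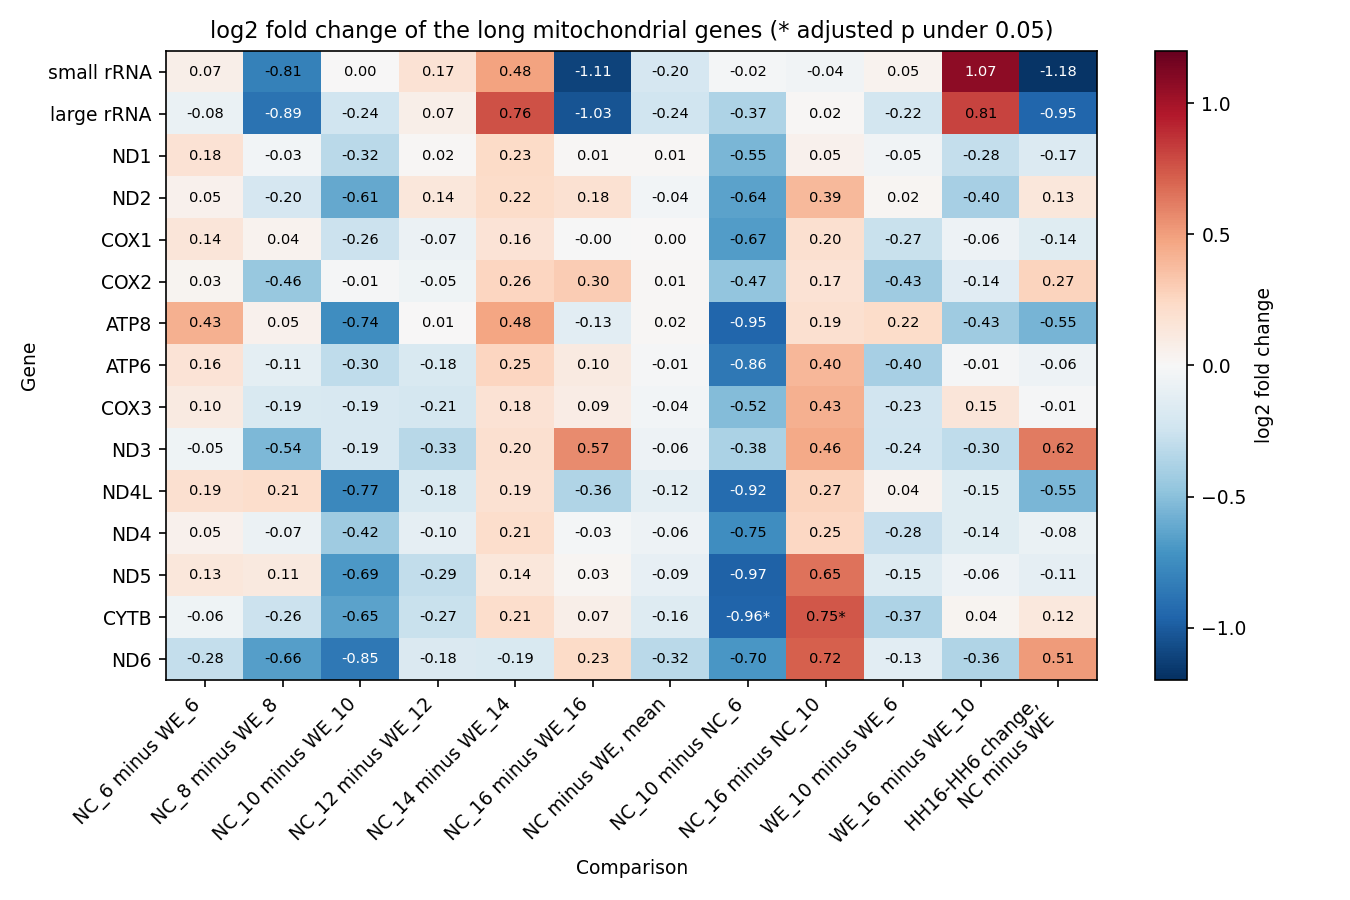
Log2 fold change (colour and printed value) of the 15 long mitochondrial genes (rows, in genome order) in each comparison (columns), from edgeR. An asterisk marks an adjusted p under 0.05, which CYTB alone reached, at -0.96 in NC_10 minus NC_6 and 0.75 in NC_16 minus NC_10.

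Among the complex I genes, ND1 (MT 4050 to 5024), ND2 (MT 5241 to 6279), ND4 (MT 11486 to 12863) and ND5 (MT 13071 to 14888) give large subunits of its membrane arm. ND1 had its lowest group mean in NC_10, 5045 ± 1525 CPM, and its highest in NC_6, 7368 ± 1123 CPM (SD, n = 3 each). ND2 ran between 1794 ± 838 CPM in NC_10 and 2940.1 ± 443 CPM in WE_8 (SD, n = 3 each). ND4 had its extremes at 3035 ± 1000.1 CPM in NC_10 and 5104 ± 588 CPM in NC_6 (SD, n = 3 each).

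ND5 had 3111, 2050.3 and 2147 CPM in NC_10, against 3966, 4594 and 3190.0 CPM in WE_10. No NC_10 library reached the lowest WE_10 library, and the log2 fold change was -0.69 ± 0.35 (SE, adjusted p = 0.406). In NC_6 ND5 had 6610.3, 3760.3 and 3967 CPM, and the NC_10 change against it was -0.97 ± 0.35 (SE, adjusted p = 0.165). The high NC_6 library is again the one of set C. ND3 (MT 10776 to 11126) and ND4L (MT 11196 to 11492) are small membrane subunits. ND3 averaged 288 ± 133 CPM in NC_16, against 194 ± 91.8 CPM in WE_16 (SD, n = 5 each), with a log2 fold change of 0.57 ± 0.32 (SE, adjusted p = 0.50), and of 0.39 (adjusted p = 0.795) without WE_16 replicate 5. ND4L averaged 157 ± 68.3 CPM in NC_10, against 269 ± 112 CPM in WE_10 (SD, n = 3 each), and overlapped between them.

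ND6 (MT 16184 to 16705, minus strand), the complex I subunit made from the other strand, had 264, 205 and 224 CPM in NC_10, against 386, 493 and 374 CPM in WE_10. The groups did not overlap, and the log2 fold change was -0.85 ± 0.43 (SE, adjusted p = 0.396). ND6 was lower in the NC library of 13 of the 19 shared pools, the most among the coding genes, against 11 of 19 for CYTB, ND2 and ND4 and 9 of 19 for COX1. Its log2 fold change over the mean of the stages was -0.32 ± 0.16 (SE, adjusted p = 0.233). With the library set as a covariate it was -0.39 (adjusted p = 0.0364), and ND6 was the 1 of 26 mitochondrial genes that passed, where 16.4% of all genes tested did. With the 6 codes as a covariate ND6 and CYTB passed, where 17.7% of all genes did. At HH12 ND6 was highest in the set D libraries of both populations: it was 731, 612, 258 and 235 CPM in NC_12 and 784, 574, 435 and 281 CPM in WE_12, and the first 2 libraries of each group are those of set D. The level of ND6 per kb was 0.208 to 0.951 of that of ND5 in set A, 0.162 to 0.409 in set B, 0.202 to 0.296 in set C and 0.462 to 0.806 in set D. Set D lay above sets B and C in this ratio without overlap, and set A overlapped each of the others.

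Of the complex IV genes, COX1 had its highest group mean in NC_6, 17333 ± 1577 CPM, and its lowest in NC_10, 10893 ± 1815 CPM (SD, n = 3 each). The COX1 means of NC_16 and WE_16 were 12484 ± 2661 and 12486 ± 2415 CPM (SD, n = 5 each), a difference far below their spread. COX2 (MT 8331 to 9014) binds the copper center that takes electrons from cytochrome c. It was highest in WE_8, at 6357 ± 1992 CPM (SD, n = 3), and lowest in WE_16, at 3811 ± 745 CPM (SD, n = 5). COX3 (MT 9923 to 10706) ran between 3904 ± 725 CPM in NC_10 and 5968 ± 1271 CPM in WE_8 (SD, n = 3 each).

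For ATP synthase, ATP6 (MT 9240 to 9923) had its lowest group mean in NC_10, 3359 ± 1119 CPM, and its highest in NC_14, 6437 ± 1619 CPM (SD, n = 3 each). ATP8 (MT 9085 to 9249) averaged 113 ± 55.2 CPM in NC_10, 189 ± 104 CPM in WE_10 and 218 ± 21.5 CPM in NC_6 (SD, n = 3 each). Its libraries at HH10 were far apart, with 131, 157 and 50.9 CPM in NC_10, against 191, 292 and 84.9 CPM in WE_10, and the groups overlapped. The log2 fold change of ATP8 was -0.74 ± 0.47 (SE, adjusted p = 0.550) between NC_10 and WE_10, and -0.95 ± 0.47 (SE, adjusted p = 0.383) between NC_10 and NC_6.

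A ratio between plus-strand coding genes also differed between library sets. ND5 lies far from COX2 along the plus strand, and the ratio of their levels per kb was 0.138 to 0.338 in the 22 libraries of set A. It was 0.243 to 0.498 in the 10 of set B, 0.483 to 0.573 in the 6 of set C and 0.354 to 0.584 in the 4 of set D. Set A does not overlap sets C and D in this ratio. Within set A the ratio spanned 0.167 to 0.338 in NC libraries, against 0.138 to 0.318 in head cell libraries. The mean ratio was 0.228 ± 0.0591 in NC_10, against 0.320 ± 0.141 in NC_6 (SD, n = 3 each). The NC_6 mean includes the set C library, at 0.483, beside 0.236 and 0.241 in set A. Set B overlaps each of the others. CYTB relative to COX1 did not split by set: the ratio per kb had medians of 0.404 in set A, 0.381 in set B, 0.425 in set C and 0.405 in set D. In NC_10 that ratio was 0.323 ± 0.0501, against 0.396 ± 0.0784 in NC_6 (SD, n = 3 each). The set A libraries lay together, at 0.356 and 0.349 in NC_10 and at 0.340 and 0.363 in NC_6. The set B library of NC_10 was at 0.266, and the set C library of NC_6 at 0.485.

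The rRNA genes, whose RNA is the bulk of mitochondrial RNA in cells, were a minor part of these poly(A)-selected libraries. Together they gave 1.89% to 10.5% of mitochondrial reads in the kept libraries other than WE_16 replicate 5. The large rRNA (MT 2346 to 3966) averaged 1188 CPM per kb and the small rRNA (MT 1297 to 2272) 1252 CPM per kb over the 12 group means. Both averages include WE_16 replicate 5. The small rRNA lay above the large one in 16 of 42 libraries. Their ratio per kb, small over large, was highest at HH14. Its mean was 1.65 ± 0.351 in NC_14 and 1.94 ± 0.0576 in WE_14, the 2 highest groups, against 0.724 ± 0.145 in NC_8 and 0.640 ± 0.116 in WE_8 (SD, n = 3 each). All 6 HH14 libraries had a higher ratio than every HH6, HH8 and HH10 library, whose highest was 1.15. The HH12 and HH16 libraries overlapped the HH14 range. They reached 1.75 in NC_12 and 1.61 in WE_16, against 1.38 in the lowest NC_14 library.

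The large rRNA had 1638, 2586, 1689, 679.7 and 842 CPM in NC_16, against 2014, 1241, 1462, 517 and 9996 CPM in WE_16, where the last value is that of replicate 5. The small rRNA had 1098, 1565, 989.6, 245 and 352 CPM in NC_16, against 1951, 606, 579.8, 174 and 5852 CPM in WE_16. Apart from WE_16 replicate 5, the HH16 groups overlapped for both genes. The log2 fold change in NC_16 against WE_16 was -1.03 ± 0.47 (SE, adjusted p = 0.382) for the large rRNA and -1.11 ± 0.59 (SE, adjusted p = 0.471) for the small rRNA. Without WE_16 replicate 5 these were 0.17 (adjusted p = 0.938) and 0.02 (adjusted p = 0.998), and the signs turned. The WE_16 mean of the large rRNA was 3046 ± 3922 CPM with that library (SD, n = 5) and 1308 ± 619.9 CPM without it (SD, n = 4), against 1487 ± 765 CPM in NC_16 (SD, n = 5).

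At HH8 both rRNAs were lower in NC_8 than in WE_8 on average, but the WE_8 libraries were far apart. The large rRNA had 1716, 1248 and 959 CPM in NC_8, against 1553, 3795 and 1907 CPM in WE_8, and the log2 fold change was -0.89 ± 0.61 (SE, adjusted p = 0.563). At HH14 the order of the means was reversed, but the NC_14 libraries were far apart. The large rRNA had 3850.2, 2067 and 1037 CPM in NC_14, against 1345, 1701 and 1058 CPM in WE_14. The log2 fold change was 0.76 ± 0.61 (SE, adjusted p = 1.0). In the pool that gave replicate 3 of both groups the NC library was the lower, at 1037 against 1058 CPM. Neither rRNA passed the test in any comparison. In WE_16 against WE_10 the small rRNA had 1.07 ± 0.70 (SE, adjusted p = 0.437), and without WE_16 replicate 5 -0.08 (adjusted p = 0.973).

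**Figure D5:**
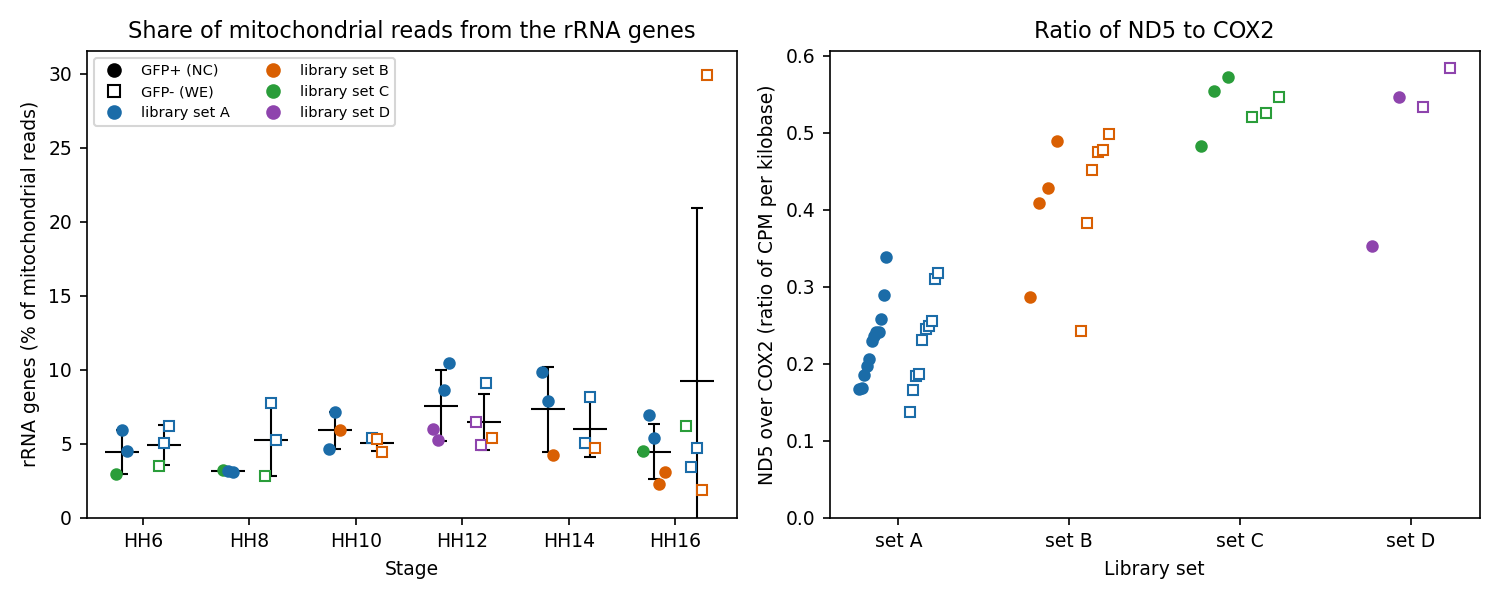
Left, percent of mitochondrial reads from the 2 rRNA genes by stage, with group mean and SD (bars); WE_16 replicate 5 lies at 29.9%. Right, ratio of ND5 to COX2 in CPM per kb by library set, sorted within each set and population; set A lies between 0.138 and 0.338. Filled circles are NC and open squares head cell libraries.

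The short genes, named here by their order among the 37 genes, gave 0.132% to 0.900% of mitochondrial reads in the kept libraries. Which of them were counted followed their spacing. All 11 described short genes had at least 68 bases free of other genes of the same strand on one side, or no gene of that strand beyond them, and held 299 to 73807 reads over the 42 libraries. The 11 others had at most 9 such bases on either side, apart from short gene 37, the last gene, which had no neighbour after it and 8 reads. Counting left out reads that reached a second gene of the same strand, and the libraries were poly(A)-selected. Few counts therefore do not show that those RNAs were absent, and the cause of the low counts was not tested.

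The most abundant, with 73807 reads, was short gene 7 (MT 5025 to 5096, plus strand), which starts at the base after ND1, and short gene 11 (MT 6280 to 6355), which starts at the base after ND2, followed with 13806. Both lie at the end of a coding gene and before a stretch without plus-strand genes. Short gene 7 had 127, 69.4 and 25.2 CPM in NC_10, against 262, 56.5 and 35.8 CPM in WE_10. It had 80.6, 233, 315, 57.4 and 49.5 CPM in NC_16, against 67.2, 147, 96.5, 48.3 and 69.3 CPM in WE_16. The groups overlapped at both stages, with one or more libraries far above the rest. In comparison, short gene 11 had 27.9, 7.0 and 7.97 CPM in NC_10, against 27.4, 15.3 and 15.8 CPM in WE_10. The highest level of any other short gene in a kept library was 11.7 CPM, in short gene 17. The minus-strand short gene 35 (MT 16108 to 16177), which lies 6 bases from ND6 on its strand, was lower in the NC library of 14 of the 19 shared pools, at levels of 0.0 to 5.69 CPM. Its log2 fold change over the mean of the stages was -0.34 ± 0.34 (SE, adjusted p = 0.635).

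The widest fitted changes among the short genes rested on few reads. In WE_16 against WE_10, short gene 12 (MT 6362 to 6430, minus strand) had 0.420, 1.03, 0.503, 0.456 and 8.14 CPM in WE_16, against 0.0, 0.193 and 0.0 CPM in WE_10, and the last WE_16 library, replicate 5, stood far above the rest. Its fitted log2 fold change was 4.69 ± 1.58 (SE, adjusted p = 0.0786), a value that depends on the prior count because WE_10 was near 0, and DESeq2 called it, as did limma voom with the pool as a random replicate block. Without WE_16 replicate 5 it was 2.88 (adjusted p = 0.273) in edgeR, 2.95 (adjusted p = 0.176) in DESeq2 and 3.24 (adjusted p = 0.0803) in the limma voom fit with the block, so that no tool called it. The level of short gene 15 was 0.060, 0.243, 0.101, 0.316 and 4.84 CPM in WE_16 and that of short gene 34 was 0.540, 0.608, 0.252, 0.0701 and 3.58 CPM, again highest in replicate 5. The 5 minus-strand short genes among the described ones, of 8 in all, summed to 32.5 CPM in WE_16 replicate 5 and to at most 14.5 CPM in the other kept libraries. In turn, short gene 17 (MT 8124 to 8258, minus strand), which lies opposite the end of COX1, had 0.886, 1.57, 2.29, 0.619 and 0.941 CPM in NC_16, against 0.60, 7.42, 10.8, 0.912 and 11.7 CPM in WE_16, with a log2 fold change of -2.33 ± 0.80 (SE, adjusted p = 0.230). Without WE_16 replicate 5 the change was -1.99 (adjusted p = 0.445). Short gene 17 was high in 3 of the 5 WE_16 libraries and at the NC_16 level in the other 2.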

How the data were processed

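Stranded poly(A) RNA-seq was made from sorted cells of pooled heads. The authors deposited a table of raw read counts per gene for 50 libraries and a filtered table of 42 of them, which defines the kept libraries. Per the file headers, reads were counted with featureCounts 1.6.2 on the reverse strand with Ensembl 99 annotation of GRCg6a, and no option for multi-mapping or multi-overlapping reads was set, so reads over 2 genes of 1 strand were not counted and nuclear copies near-identical to mitochondrial genes leave counts uncertain. Trimming used cutadapt 2.10 and alignment HISAT2 2.1.0 with SAMtools 1.9, per the submitters' processing notes. All 50 columns were matched to samples by title.

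From these counts, edgeR 4.0.16 in R 4.3.3 fitted the 12 groups in one quasi-likelihood model (robust, filterByExpr by group, TMM). It tested 15737 genes and removed 8619, with Benjamini-Hochberg adjustment over all genes tested and a threshold of 0.05. CPM are on TMM-scaled library sizes. All of the 37 mitochondrial genes were kept in shares, and every one with 10 or more reads in at least 3 kept libraries is described. Names came from RefSeq GRCg7b by length (within 3 bases) and a shared shift of start (within 5 bases): 36 of 37 matched, 33 with the same length. The nuclear gene lists and cell type markers listed for this work were not used, because 0 of 25635 reference entries hold an Ensembl identifier. Members and lists were chosen with earlier results of these data known. The model code was run on simulated counts as a check of the code alone. Their spread between replicates was set below the median estimated here, without library sets or pools.

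Depth was 4869937 to 29316689 counted reads per kept library. The labels tell replicates apart by pool only, so a p-value here covers variation among libraries, part of which may be technical. No 2 replicates agreed within sampling noise. Pools named in the titles gave 19 pairs of an NC and a head cell library, whose deviations from the group means correlated at 0.122 to 0.823, all above 0.1. All 19 pairs share a library set, and 17 of them the leading code of the library name. Libraries of different pools were not correlated in this way, so these values cannot tell a shared pool from a shared set. The pools were taken to pair the libraries from their titles. Fits with the pool as a replicate block (edgeR between populations, limma 3.58.1 voom between stages) were alternatives. The others were DESeq2 1.42.0, other normalizations and filters, the set as a covariate, other choices of libraries and leaving out single libraries. The values within set A, the 6 leading codes as a covariate and 2 further fits without WE_16 replicate 5 were added after seeing the data.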

Additional observations from a re-analysis of the deposited data

Results flagged for a closer look

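In the 4 groups of 4 or 5 libraries, 17 measures each were tested for a value far from the others, 68 tests in all. They gave 4 such values, where chance gives about 1 in 20 tests, and the first 2 below come from the same library and the same rRNA reads. WE_16 replicate 5 had 29.9% of its mitochondrial reads in the rRNA genes, against a nearest value of 6.18% in WE_16. The large rRNA was at 9996 CPM in the same library, against a nearest value of 2014 CPM in WE_16. ND5 was at 5819 CPM in NC_16 replicate 1, which is the set C library of its group, against a nearest value of 3658 CPM. ND5 was at 3383 CPM in WE_12 replicate 3, the set A library of its group, against a nearest value of 4172 CPM.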

How the results depend on the processing

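Counts of called mitochondrial genes follow, with the share of all genes tested that the same setting called. In NC_10 against NC_6 (1 as reported, 2.03%), 0 were called with all 50 libraries (0.21%), without a filter on low counts (1.04%), in the compared groups alone (5.24%) and in set A alone (1.16%). COX1 and CYTB, 2 genes, were called with DESeq2 (4.29%), limma voom (3.62%) and the library set as a covariate (3.16%). Called genes numbered 3 with limma voom and the pool as a random replicate block (3.48%), and 3 (COX1, ND5 and CYTB) with the 6 codes as a covariate (3.9%). In NC_16 against NC_10 (1 as reported, 7.05%), 0 were called with all 50 libraries, without the 3 libraries in which the fewest genes reached 10 reads, with library sizes from genes outside the mitochondrial genome, without a filter, with a filter of 1 CPM in 3 libraries, in the compared groups alone and in set A alone, where 1.44% to 8.53% of all genes were. Leaving out single libraries gave 0 to 1 in both, where 0.628% to 1.62% and 3.84% to 7.07% of all genes were called. In NC_10 against WE_10, 1 gene (CYTB) was called with the set (2.6%) and with the codes (2.65%) as a covariate. In the mean over stages, 1 (ND6) was called with the set (16.4%) and 2 (ND6 and CYTB) with the codes (17.7%). In WE_16 against WE_10, 1 (short gene 12) was called with DESeq2 (8.86%) and with the voom replicate block (6.34%), and 0 with either once WE_16 replicate 5 was left out. The edgeR replicate block changed no count between populations, all of which were 0. The cause of these changes was not tested. Without single libraries, the small rRNA in NC_16 against WE_16 ranged from -1.47 to 0.020 and the large rRNA from -1.35 to 0.17. In WE_16 against WE_10 the ranges were -0.081 to 1.35 and -0.41 to 1.07. The sign turned without WE_16 replicate 5 in each. In WE_16 against WE_10 without that library it also turned in DESeq2 (small -0.13, large -0.46) and in the voom replicate block (small -0.69, large -0.61). The mean share was 5.16% in NC_6 with all 50 libraries and 4.43% in NC_12 from coding genes alone, and group means without single libraries stayed within 1 SD. Apart from short genes 7 and 11, depth limits the described short genes, at medians of 4 to 29.5 reads per kept library. The median of all genes shifted by over 0.1 in 4 fits, by at most -0.18 (NC_16 against NC_10 in set A alone).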

Other observations

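The 8 libraries outside the filtered table entered only the fits and group means that used all 50 libraries. Their mitochondrial share of counted reads was 1.5% in NC_6 replicate 4, 2.25% in NC_8 replicate 4, 2.08% in NC_10 replicate 3 and 4.95% in NC_12 replicate 5. In GFP-negative head cells it was 2.01% in WE_6 replicate 4, 4.64% in WE_8 replicate 4, 3.91% in WE_10 replicate 1 and 5.43% in WE_12 replicate 4. In 4 of the 8 the share was below that of every kept library. They held between 512123 and 27432044 counted reads. Coding genes gave 78.6% of the mitochondrial reads in NC_6 replicate 4.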
